A study of Sus scrofa with 39 samples.

Results

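Whole-blood transcriptomes of 4 preterm piglets with mild necrotizing enterocolitis (NEC) were set against those of 7 control piglets (CON) of the same batch. The 11 libraries were all the mild and CON libraries that the labels place in batch 1, out of 39 libraries in the series. Every piglet of the study was formula fed and was examined at necropsy on day 5, where NEC was diagnosed. The labels give no age at sampling. The mild group held 2 females and 2 males, and the CON group held 4 females and 3 males. No drug, genotype or pooling is given for either group. Libraries are called mild 1 to mild 4 and CON 1 to CON 7, and these numbers are names that pair nothing. Mild 1 and mild 4 are labelled female and mild 2 and mild 3 male, and CON 1, CON 4 and CON 7 are the CON males. The piglets' labels end in 16 (3 mild, 5 CON) or 17 (1 mild, 2 CON), with no meaning given. The run labels place all 7 CON libraries and mild 1 and mild 2 on flow cell H53FNCCXY, and mild 3 and mild 4 on flow cell H53GYCCXY.

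In NEC the gut of a preterm newborn becomes inflamed, and parts of its wall can die. Whole blood carries RNA of red cells, platelets and white cells, so its transcriptome reflects both the mixture of cells and what each cell transcribes. B cells make antibody and present antigen on MHC class II molecules. Neutrophils store antimicrobial proteins in granules and leave the blood for inflamed tissue, and platelets, which have no nucleus, carry RNA from the megakaryocytes that shed them.

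Counts on genes ranged from 15.3 to 19.6 M (M, counts in units of 1000000) in mild libraries and from 14.5 to 17.7 M in CON libraries. Globins, the red cell proteins that carry oxygen, took 90.3, 87.4, 87.1 and 70.7% of them in mild 1 to mild 4, against 86.0 to 90.6% in CON. This left 1.48, 2.11, 2.45 and 5.74 M counts for all other genes in mild 1 to mild 4, against 1.499 to 2.35 M in CON. A gene without a symbol was taken as a globin in these shares. It held 23.0 to 32.2% of gene counts in mild and 22.4 to 31.4% in CON. None of 4 measures of library composition differed between the groups by an exact permutation test (2-sided, 330 arrangements, smallest p it allows 0.00303). The difference in globin share was -3.73 percentage points (adjusted p = 0.473), and without mild 4 it was 0.678. Reads outside annotated genes were 0.491, 0.752, 0.741 and 3.44% of reads in mild 1 to mild 4, against 0.429 to 1.21% in CON. Mild 4 stood apart in these measures. Mild 1 lay within or next to the CON range in them, but had the lowest level of the 11 libraries in 20.7% of the 8907 genes tested and the highest in 17.9%, against at most 14.1% for any other library in either count. Results are therefore also given without mild 1 and mild 4. Both are labelled female. With sex as a term, values without both rest on mild 2 and mild 3 against the 3 CON males. The scaling to a common level (CPM, counts per 1000000 counts, with TMM factors) made 1 CPM worth 9.997 counts in mild 1 and 75.7 counts in mild 4, against 7.90 to 20.4 counts in CON libraries. The Y-linked genes EIF1AY and KDM5D had at most 1 count in the libraries labelled female and at least 9 in those labelled male.

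**Figure D1:**
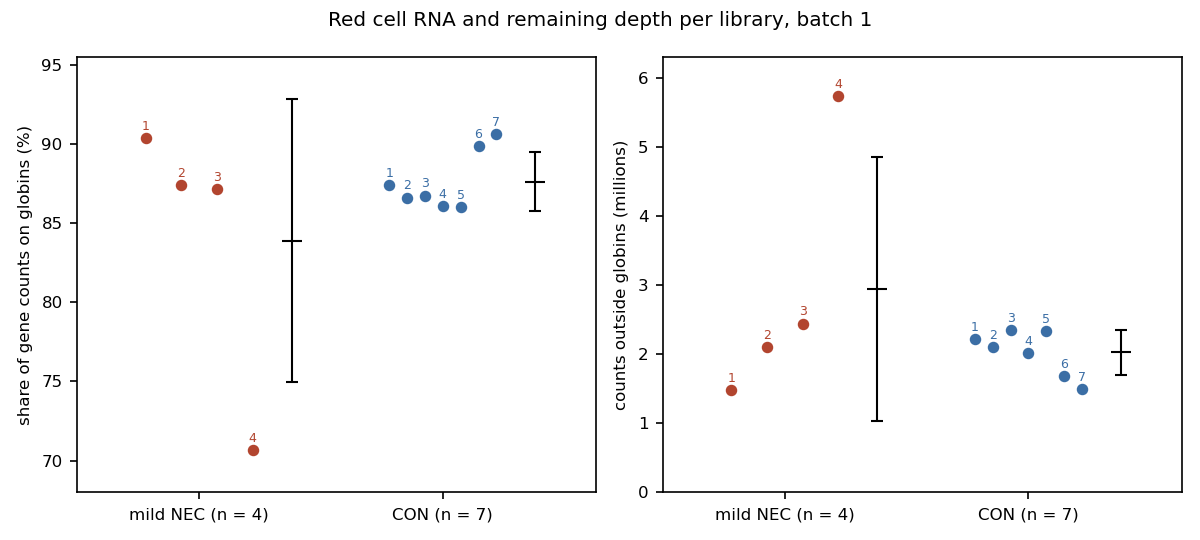
Left, share of gene counts on globin genes (%); right, counts outside globins (M), for the 4 mild and 7 CON libraries of batch 1. Points are libraries with their numbers, and bars are the mean ± SD. Mild 4 lies at 70.7% and 5.74 M, outside the CON ranges of 86.0 to 90.6% and 1.499 to 2.35 M.

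No gene passed the test between mild and CON. The edgeR quasi-likelihood test called 0 of 8907 genes (0%) at a Benjamini-Hochberg adjusted p under 0.05, with sex as a term. On simulated data it called 35.5% of genes with a true log2 change of 1, so changes of that size can be missed. Differences in globin share between libraries were not simulated, so the rate in the real libraries may differ. An unadjusted p under 0.05 was reached by 988 genes (11.1%), of which 466 were higher in mild (5.23%) and 522 were lower (5.86%). The smallest adjusted p was 0.243, for HMCES. The median log2 fold change over all genes was 0.0066, with 4524 genes higher (50.8%) and 4383 lower (49.2%) in mild. In 76 genes (0.853%) every mild library lay above every CON library, and in 35 (0.393%) every mild library lay below. Limma with sample weights called 2 genes, both lower (0.0225%), and DESeq2's Wald test called 5 higher (0.0597%) and 36 lower (0.429%). Without the filter on low counts, edgeR called 279 of 15879 genes (1.76%). The values below are given as levels and differences, since edgeR called none of the named genes between mild and CON.

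B cell genes were higher in mild in nearly every member. Of 23 tested B cell markers, 22 were higher and 1 was lower, with a median log2 fold change of 0.55 against 0.0066 over all genes. An unadjusted p under 0.05 was reached by 12 in the higher direction, where 5.23% of all genes did so, and by 1 in the lower. The mean level of the list, as mean log2(CPM + 0.5), was 2.55, 1.88, 2.07 and 1.94 in mild 1 to mild 4, against a lowest of 1.34, a median of 1.62 and a highest of 1.79 in CON. The groups did not overlap, and mild 1 was highest. In whole blood, more B cells, more of these transcripts per B cell and less RNA from other cells cannot be told apart. CPM are relative levels, and the same holds for every cell type below. The median was 0.28 without mild 1, where 21 members stayed higher, and 0.74 without mild 4, where 20 did. Without both it was 0.30, with 18 members higher and 5 at an unadjusted p under 0.05.

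PAX5, the transcription factor that keeps B cells committed to their lineage, had 14.7, 7.37, 11.3 and 9.24 CPM in mild 1 to mild 4, against a lowest of 3.21, a median of 3.92 and a highest of 6.92 CPM in CON. All 4 mild libraries lay above all 7 CON libraries, as 0.853% of all genes did in that direction. Its log2 fold change was 1.19 ± 0.25 (SE; edgeR adjusted p = 0.247), and it was 1.02 without mild 1 and mild 4. DESeq2 called it, at an adjusted p of 0.0184. The gene (ENSSSCG00000036086) lies on chromosome 1 from 237574938 to 237785454 in Sscrofa11.1, per RefSeq.

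MS4A1, a B cell surface protein and the target of antibodies that deplete B cells, had 7.50, 3.33, 4.75 and 4.18 CPM in mild against 1.14, 2.53 and 2.85 CPM in CON. The fold change on the log2 scale was 1.13 ± 0.27 (edgeR adjusted p = 0.305), and its groups did not overlap. RALGPS2 also lay apart between the groups, with 6.90, 4.10, 4.93 and 5.23 CPM in mild against 2.27, 3.06 and 3.85 CPM in CON (log2 fold change 0.80 ± 0.20, edgeR adjusted p = 0.347).

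FCRL1, an Fc receptor-like protein of B cells, overlapped between the groups. It had 5.40, 2.50, 3.67 and 3.24 CPM in mild against 0.803, 1.75 and 2.89 CPM in CON, and mild 2 lay below the highest CON library. EBF1, which acts with PAX5 in early B cells, had the largest change of the list, with 1.70, 0.832, 2.04 and 1.23 CPM in mild against 0.195, 0.489 and 0.981 CPM in CON. On the log2 scale the fold change was 1.47 ± 0.37 (edgeR adjusted p = 0.341), and 1.46 without mild 1 and mild 4. TNFRSF13C, the receptor for the survival factor BAFF, stood at 0.99 ± 0.31 (edgeR adjusted p = 0.388). CD79A and CD79B, the signalling chains of the B cell receptor, stood at 0.65 ± 0.23 and 0.47 ± 0.28. CD79B was the more dependent on mild 1, with 28.7, 12.1, 15.1 and 11.6 CPM in mild against 8.59, 9.75 and 17.4 CPM in CON, and its log2 fold change was 0.10 without that library.

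BTK, a kinase of the B cell receptor pathway that myeloid cells also express, was the member that was lower in mild. It had 4.60, 6.65, 8.90 and 7.69 CPM in mild against 8.40, 9.11 and 14.1 CPM in CON. Mild 3 was the 1 mild library above the lowest CON library, and the log2 fold change was -0.53 ± 0.21 (edgeR adjusted p = 0.437). The plasma cell list, for the antibody-secreting stage, had 5 tested members, of which 4 were higher and 0 reached an unadjusted p under 0.05. MZB1, a chaperone of immunoglobulin assembly, stood at 0.54 ± 0.33, and at -0.04 without mild 1 and mild 4.

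**Figure D2:**
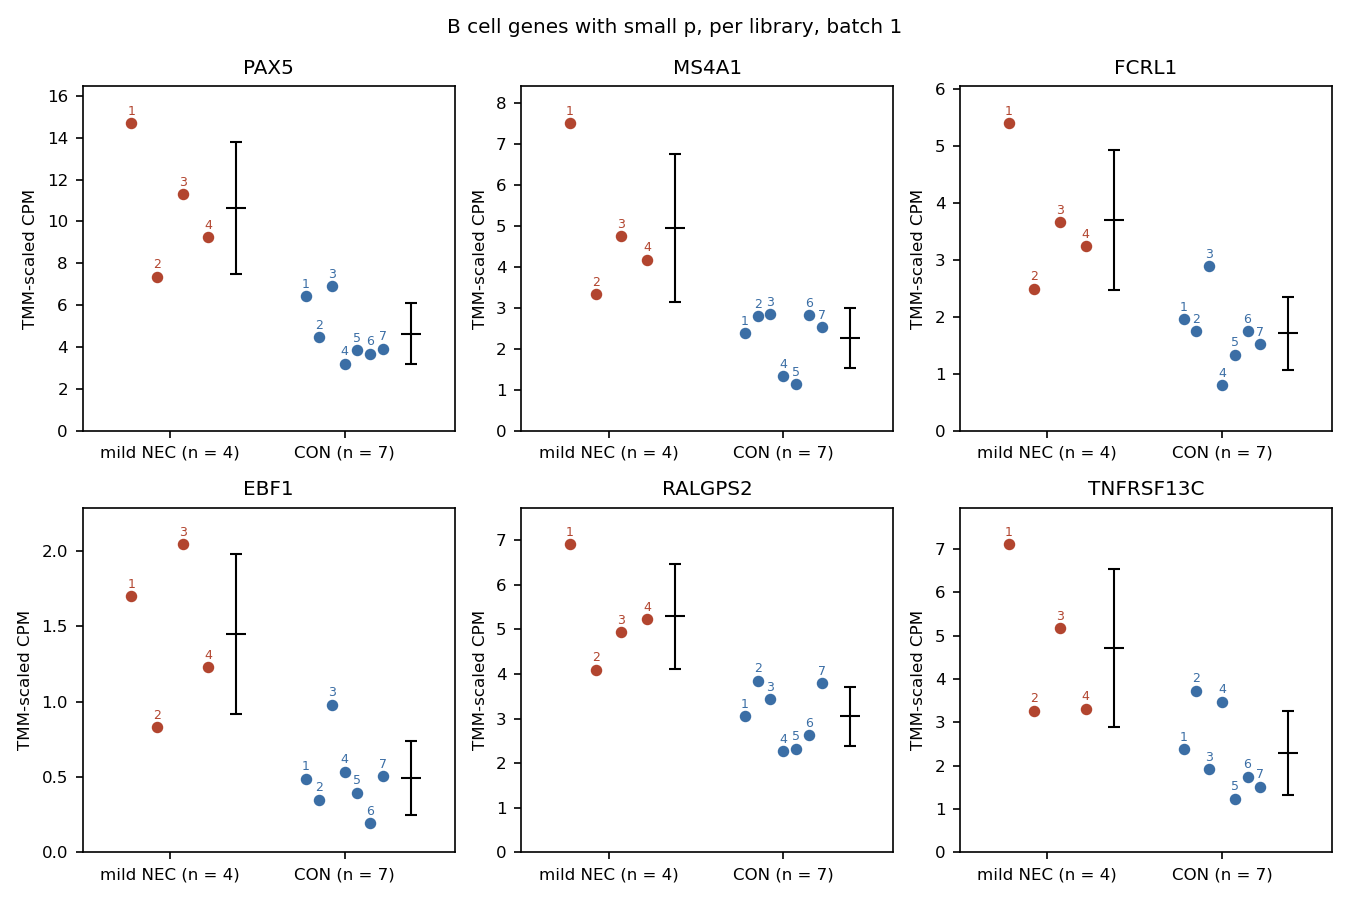
Level in TMM-scaled CPM of 6 B cell markers with small p, for the 4 mild and 7 CON libraries of batch 1. Points are libraries with their numbers and bars are the mean ± SD; PAX5, MS4A1 and RALGPS2 do not overlap between the groups, while in FCRL1, EBF1 and TNFRSF13C mild 2 lies below the highest CON library.

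Antigen presentation by MHC class II was less even than the B cell list. Of 14 tested genes, 8 were higher and 6 lower in mild, with a median log2 fold change of 0.28. The median was 0.06 without mild 1 and -0.05 without mild 1 and mild 4. CIITA, the master activator of MHC class II transcription, had 9.10, 4.69, 7.69 and 6.79 CPM in mild against 2.91, 4.82 and 5.99 CPM in CON. Mild 2 lay within the CON range and the other mild libraries above it, with a log2 fold change of 0.60 ± 0.21 (edgeR adjusted p = 0.415). HLA-DRA, which encodes the alpha chain of the DR molecule, had 30.3, 13.2, 14.7 and 17.2 CPM in mild against 8.87, 12.3 and 17.2 CPM in CON. Its log2 fold change was 0.60 ± 0.27 with all mild libraries, 0.27 without mild 1 and 0.02 without mild 1 and mild 4. Reads that align to several near-identical histocompatibility genes were not counted, so levels within this family are uncertain.

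Neutrophil granule genes were lower in mild in each of their 11 tested members, with a median log2 fold change of -0.85 and 7 members at an unadjusted p under 0.05, where 5.86% of all genes were. The median stayed between -1.01 and -0.96 without mild 1, without mild 4 and without both. The mean list level was 1.42, 3.34, 3.50 and 2.01 in mild 1 to mild 4, against 3.03, 3.26 and 4.68 (lowest, median, highest) in CON. Mild 1 and mild 4 lay below every CON library, while mild 2 and mild 3 lay within the CON range. This split is also that of the labelled sexes, mild 1 and mild 4 being female. CON males had 3.87 to 4.68 and CON females 3.03 to 3.26, so within each sex every mild library lay below every CON library. Whether the change in mild differs by sex was not tested. The level thus differed more among the mild piglets than among the CON piglets, with SDs of 1.01 and 0.61.

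LTF, lactoferrin of the specific granules, had 2.50, 2.55, 4.81 and 1.43 CPM in mild against 2.97, 13.5 and 21.3 CPM in CON. Mild 3 lay above 2 CON libraries and the other mild libraries below all of them. The log2 fold change was -2.10 ± 0.43 (edgeR adjusted p = 0.247), and -2.29 without mild 1 and mild 4. DESeq2 called it, at an adjusted p of 0.00227. The gene lies on chromosome 13 from 29413886 to 29445751 in Sscrofa11.1.

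S100A8, a calcium-binding protein that fills the cytoplasm of neutrophils, had 0.900, 53.3, 68.5 and 7.20 CPM in mild against 19.4, 44.2 and 234 CPM in CON. Mild 2 and mild 3 were above the CON median, while mild 1, at 0.900 CPM, and mild 4 were below the CON range. Its log2 fold change of -1.98 ± 0.62 (edgeR adjusted p = 0.388) was -1.03 without those 2 libraries. S100A12 gave the mild libraries the same order, with 1.80, 63.9, 86.7 and 11.02 CPM in mild against 22.3, 61.6 and 302 CPM in CON. MMP8, the collagenase of neutrophils, had 0.100, 5.58, 8.90 and 0.410 CPM in mild against 1.65, 3.68 and 30.8 CPM in CON. MMP9, the gelatinase of neutrophils, had 2.20, 12.5, 15.4 and 10.04 CPM in mild against 6.92, 21.5 and 68.0 CPM in CON.

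The list of mature neutrophil genes gave 8 of 8 tested members lower, with a median of -0.91 and 3 at an unadjusted p under 0.05. It moved to -0.32 without mild 1 and mild 4. IL1R2, the decoy receptor that binds interleukin 1 without signalling, had 0.5002, 6.42, 6.37 and 3.26 CPM in mild against 2.51, 11.7 and 23.6 CPM in CON. Mild 1 lay below the CON range and the other mild libraries below all CON libraries but the lowest. The log2 fold change was -1.82 ± 0.42 (edgeR adjusted p = 0.305), and -1.69 without mild 1 and mild 4. PADI4, the enzyme that citrullinates histones in neutrophil extracellular traps, had 3.50, 46.2, 36.8 and 19.1 CPM in mild against 22.3, 50.3 and 91.3 CPM in CON. Here 2 mild libraries were within the CON range, and the log2 fold change was -1.15 ± 0.41 (edgeR adjusted p = 0.418). ALOX5AP, needed for leukotriene synthesis, stood at -1.39 ± 0.49, and at -0.67 without mild 1 and mild 4.

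Monocyte genes were lower in mild in 15 of 16 tested members, with a median of -0.54 and 2 members at an unadjusted p under 0.05. The median was -0.38 without mild 1 and -0.93 without mild 4, where all 16 members were lower and 4 reached that p. The mean list level was 1.43, 2.64, 2.51 and 2.68 in mild 1 to mild 4, against 2.27, 2.98 and 3.11 in CON, so that mild 1 lay below the CON range and the others within it. CD14, the co-receptor for lipopolysaccharide, had 1.90, 56.3, 38.5 and 30.9 CPM in mild against 31.1, 48.1 and 137 CPM in CON. The difference was -1.27 ± 0.67 on the log2 scale (edgeR adjusted p = 0.476) and -0.76 without mild 1. AIF1, an actin-binding protein of macrophages, stood at -0.999 ± 0.42 and TLR2, a receptor for bacterial lipoproteins, at -0.90 ± 0.38 (edgeR adjusted p = 0.437 for both). CD163, the scavenger receptor for haemoglobin, stood at -0.77 ± 0.44.

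Platelet genes were lower in mild in 21 of 23 tested members, with a median of -1.04, and 13 reached an unadjusted p under 0.05. The mean list level was 1.40, 2.75, 3.39 and 2.72 in mild 1 to mild 4, against 2.79, 3.39 and 3.76 in CON. Mild 3 lay at the CON median and the other 3 mild libraries below the CON range, mild 1 by the most. The median was -0.62 without mild 1 and -0.45 without mild 1 and mild 4, where 1 member remained at an unadjusted p under 0.05.

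PPBP, a chemokine precursor stored in platelet granules, had 14.005, 85.6, 135 and 62.4 CPM in mild against 84.0, 144 and 222 CPM in CON. It stood at a log2 fold change of -1.27 ± 0.46 (edgeR adjusted p = 0.425), and -0.63 without mild 1 and mild 4. GP9, a subunit of the receptor for von Willebrand factor, had 0.800, 3.09, 7.33 and 3.32 CPM in mild against 3.24, 7.43 and 11.1 CPM in CON (-1.24 ± 0.40, edgeR adjusted p = 0.388). PTGS1, the cyclooxygenase that makes the precursor of thromboxane, was the platelet gene without overlap. It had 0.200, 0.713, 0.421 and 0.700 CPM in mild against 0.795, 1.27 and 3.40 CPM in CON, and 0.393% of all genes lay apart in that direction. The log2 fold change was -1.39 ± 0.40 (edgeR adjusted p = 0.388). TUBB1, the tubulin of the platelet rim, had 57.7, 246, 467 and 218 CPM in mild against 231, 454 and 597 CPM in CON (-1.01 ± 0.46).

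**Figure D3:**
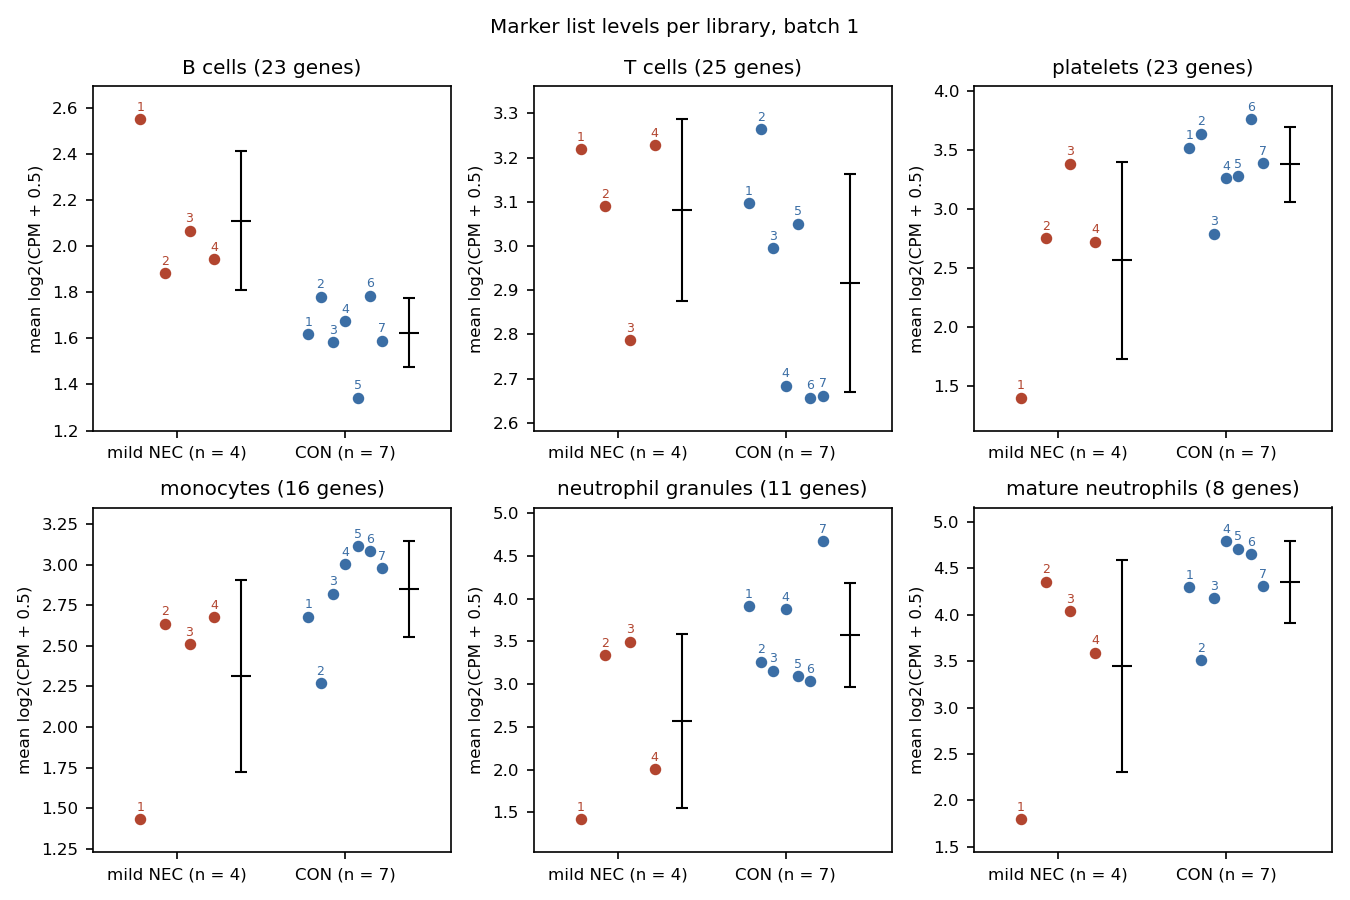
Mean log2(CPM + 0.5) of the tested members of 6 marker lists, for the 4 mild and 7 CON libraries of batch 1. Points are libraries with their numbers and bars are the mean ± SD; B cell levels do not overlap between mild and CON, while in monocytes, neutrophils and platelets mild 1 lies lowest of the 11 libraries.

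T cell genes were slightly higher in 22 of 25 tested members, with a median of 0.17 and 0 at an unadjusted p under 0.05. The median was 0.13 without mild 1 and 0.11 without mild 1 and mild 4, with 16 members higher in each case. Their mean level was 3.22, 3.09, 2.79 and 3.23 in mild 1 to mild 4, against 2.66, 2.996 and 3.26 in CON, and every mild library lay within the CON range. CD3D, a chain of the T cell receptor complex, stood at 0.38 ± 0.23 and CD3E, another chain, at 0.00 ± 0.24. Natural killer and cytotoxic genes split into 5 higher and 8 lower of 13, with a median of -0.09. NKG7, a granule protein of these cells, stood at 0.07 ± 0.29. Without mild 1 and mild 4 the median of this list was -0.79 and 1 member was higher. The 7 tested genes of eosinophils, basophils and mast cells had a median of -0.01, and the 8 of dendritic cells a median of -0.05.

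Red cell lineage genes depended on which mild library was present. Of 35 tested erythroid genes, 11 were higher and 24 lower in mild (median -0.14). Without mild 1, 1 of them was higher (median -0.51), and without mild 4, 27 were (median 0.16). The 4 tested globin genes had a median of 0.03. The mean level of the erythroid list was 5.57, 5.20, 5.81 and 3.68 in mild 1 to mild 4, against 4.82, 5.18 and 6.07 in CON. Mild 4 thus lay below the CON range, as its globin share did. Genes of ribosomal proteins behaved alike: 24 of 37 were higher with all mild libraries (median 0.05), 0 without mild 1 (median -0.35), and 29 without mild 4 (median 0.15). The 12 tested mitochondrially encoded genes had a median of -0.03 and a mean level of 6.62, 6.62, 7.22 and 5.51 in mild, against 5.79, 6.36 and 7.64 in CON.

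Interferon-stimulated genes, the antiviral programme switched on by interferons, were lower in mild in 36 of 42 tested members. Their median was -0.51, with 8 lower and 1 higher at an unadjusted p under 0.05. The median was -0.24 without mild 1 and -0.20 without mild 1 and mild 4. IRF1, a transcription factor induced by interferon gamma, had 6.80, 12.1, 11.3 and 13.9 CPM in mild against 12.5, 17.0 and 43.0 CPM in CON. Mild 4 lay above the lowest CON library and the other mild libraries below all of them, with a log2 fold change of -1.08 ± 0.35 (edgeR adjusted p = 0.388). PSMB9, a subunit of the immunoproteasome, had 4.60, 7.07, 5.17 and 6.55 CPM in mild against 6.97, 10.3 and 17.1 CPM in CON (-0.91 ± 0.29, edgeR adjusted p = 0.388). RSAD2, an antiviral enzyme, was the member with the opposite sign and an unadjusted p under 0.05, with 1.501, 0.891, 2.04 and 3.17 CPM in mild against 0.495, 0.795 and 2.22 CPM in CON (0.99 ± 0.37, edgeR adjusted p = 0.428).

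The Toll-like receptor and NF-kB pathway, which senses microbial products, split into 14 higher and 23 lower of 37 tested genes, with a median of -0.08, or -0.18 without mild 4. TLR10, a receptor found mainly on B cells in human blood, had 2.001, 0.772, 0.721 and 0.621 CPM in mild against 0.0669, 0.350 and 0.506 CPM in CON. Its groups did not overlap, and its log2 fold change was 1.64 ± 0.45 (edgeR adjusted p = 0.355), or 1.14 without mild 1. LY96, the partner of TLR4 in binding lipopolysaccharide, lay apart in the other direction, with 0.600, 2.08, 1.38 and 1.72 CPM in mild against 2.10, 2.70 and 3.41 CPM in CON (-0.85 ± 0.27, edgeR adjusted p = 0.388). REL, an NF-kB subunit abundant in lymphocytes, stood at 0.83 ± 0.29. NFKBIA, the inhibitor that NF-kB itself induces, stood at -1.41 ± 0.63.

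Of 42 tested interleukins, colony-stimulating factors and their receptors, 31 were lower in mild and 11 higher, with a median of -0.29. That lean rested on mild 1: without it the median was -0.10 (26 lower, 16 higher), and without mild 1 and mild 4 it was -0.03 (22 lower, 20 higher). IL27RA, the receptor for interleukin 27, had 7.20, 6.89, 6.55 and 7.44 CPM in mild against 3.68, 5.55 and 6.06 CPM in CON. Its groups did not overlap, with a log2 fold change of 0.50 ± 0.18 (edgeR adjusted p = 0.428). CISH, a feedback inhibitor of cytokine signalling, lay apart the other way (-0.61 ± 0.21, edgeR adjusted p = 0.412). Among 13 chemokine genes and receptors, 9 were higher and 4 lower. CXCR4, which holds leukocytes in the bone marrow, had 8.50, 7.96, 5.95 and 7.10 CPM in mild against 8.52, 10.5 and 22.01 CPM in CON, without overlap but by a narrow gap (-0.78 ± 0.27, edgeR adjusted p = 0.412). CXCR5, which guides B cells to follicles, stood at 0.64 ± 0.29.

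Glucocorticoid-responsive genes were lower in 18 of 23 tested members (median -0.47), with 4 lower and 1 higher at an unadjusted p under 0.05. DDIT4, an inhibitor of the growth kinase mTOR, stood at -0.71 ± 0.24 and FOXO1, a transcription factor that also acts in B cell development, at 0.70 ± 0.24 (edgeR adjusted p = 0.412 for both). Complement and acute-phase genes were lower in 10 of 11 (median -0.46), and the median was -0.18 without mild 1 and -0.84 without mild 4. CFP, properdin, had the smallest p of that list (-0.71 ± 0.27), and CFD, complement factor D, had the largest difference (-0.94 ± 0.49). Adhesion and migration genes were lower in 27 of 34 (median -0.25, or -0.15 without mild 1). Genes of oxidative defence were lower in 20 of 23 (median -0.36), among them PRDX6, an antioxidant enzyme, with 13.9, 28.9, 32.5 and 20.1 CPM in mild against 26.7, 45.6 and 58.3 CPM in CON (-1.03 ± 0.29, edgeR adjusted p = 0.365).

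Glycolysis and hypoxia genes were lower in 17 of 23 (median -0.31). LDHA, lactate dehydrogenase, had 21.2, 43.0, 43.4 and 36.2 CPM in mild against 47.8, 51.4 and 70.6 CPM in CON, with every mild library below every CON library. LDHA stood at -0.62 ± 0.24 (edgeR adjusted p = 0.437). The remaining lists had these medians: inflammasome and cell death -0.29 (-0.16 without mild 1), immediate early genes -0.20 (-0.12 without mild 4), MHC class I -0.19, unfolded protein response -0.12, proteasome -0.12, nuclear oxidative phosphorylation -0.08, iron and heme handling -0.07, cell cycle -0.06 and chaperones -0.04. Of the 11 libraries, mild 1 had the lowest mean level of the monocyte, neutrophil and platelet lists and the highest of the B cell list.

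Over all genes, those with the smallest p at a mean of at least 5 CPM included, beside those already described, the following in the higher direction. SMC6, a subunit of a chromosome repair complex, stood at 0.78 ± 0.25, CPSF6, a factor of messenger RNA 3′ processing, at 0.69 ± 0.22, SMCHD1, which silences the inactive X chromosome, at 0.67 ± 0.22 and EP400, a chromatin remodeller, at 0.63 ± 0.20 (edgeR adjusted p = 0.388 for all 4). MDN1, which matures the large ribosomal subunit, stood at 0.89 ± 0.30. KIAA0040 stood at 0.65 ± 0.18, JUP, the junction protein plakoglobin, at 0.71 ± 0.20, and SLC25A36, a mitochondrial nucleotide carrier, at 0.62 ± 0.20. YLPM1 had 7.60, 7.37, 6.25 and 7.53 CPM in mild against 2.72, 4.95 and 5.94 CPM in CON, and SYNCRIP, an RNA-binding protein, had 10.5, 8.97, 8.78 and 9.73 CPM in mild against 6.44, 6.91 and 7.64 CPM in CON. Neither gene overlapped between the groups, and SYNCRIP varied little within each, with SDs of 0.788 CPM in mild and 0.374 CPM in CON. Their log2 fold changes were 0.69 ± 0.23 and 0.46 ± 0.15.

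In the lower direction, S100A1, a calcium-binding protein, had 2.60, 4.22, 2.16 and 2.37 CPM in mild against 3.56, 8.48 and 10.7 CPM in CON. Mild 2 lay above 2 CON libraries and the other mild libraries below all of them. Its log2 fold change was -1.39 ± 0.28 (edgeR adjusted p = 0.247), and -1.57 without mild 1 and mild 4. JAML, an adhesion molecule of leukocytes, stood at -0.77 ± 0.20, RPS6KA2, a kinase downstream of ERK, at -1.10 ± 0.29 and TMEM9B at -1.02 ± 0.27 (edgeR adjusted p = 0.347 for all 3). STOM, a protein of the red cell membrane, stood at -0.68 ± 0.18. DNASE1L1 stood at -0.93 ± 0.26, KIAA0930 at -0.83 ± 0.23 and PROS1, an anticoagulant protein, at -1.19 ± 0.34.

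**Figure D4:**
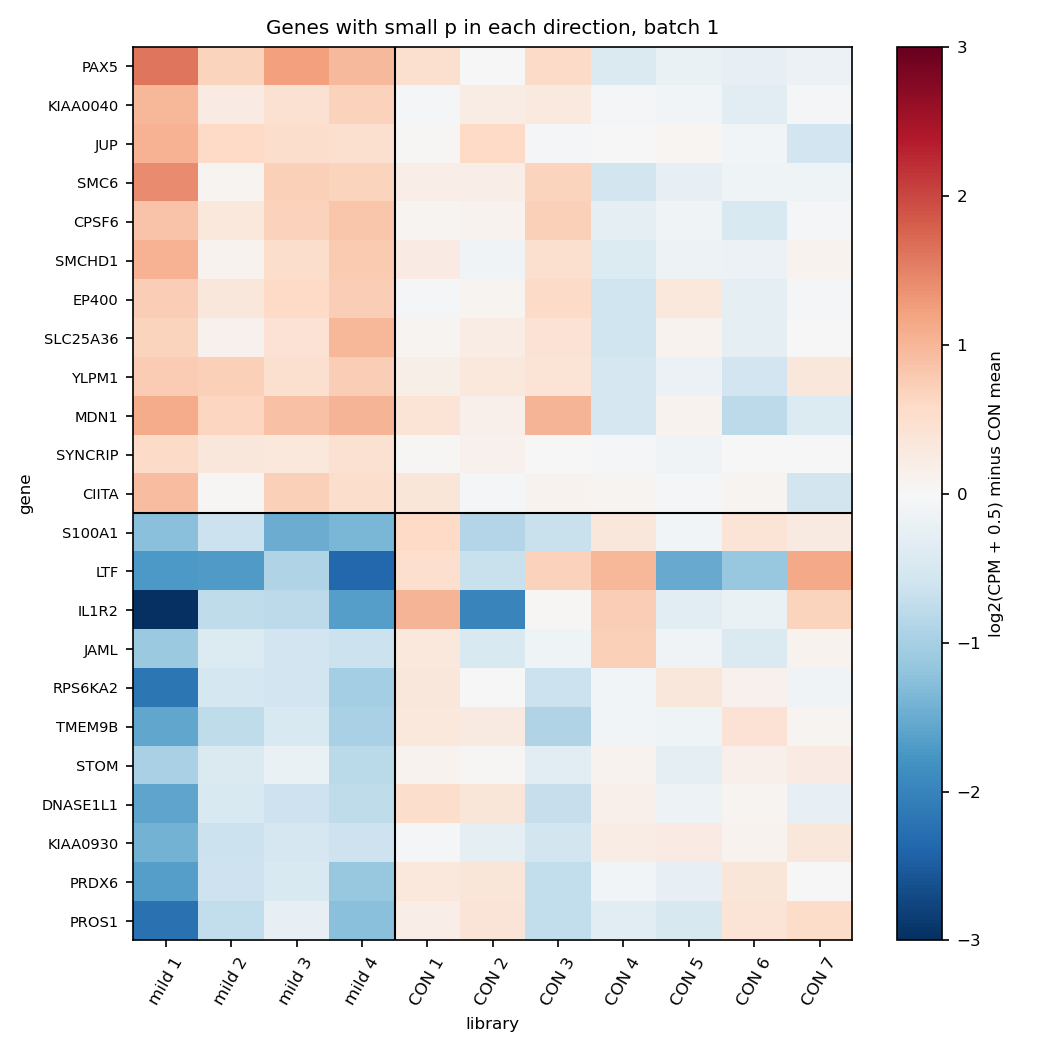
Heat map of log2(CPM + 0.5) minus the CON mean (colour) for 12 higher and 11 lower genes among those with the smallest p, in the 4 mild and 7 CON libraries. Red is above and blue below the CON mean; mild 1 is the reddest library in PAX5 (14.7 CPM) and SMC6 (22.7 CPM) and the bluest in IL1R2 (0.5002 CPM).

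AOAH, ARG2, PAK2 and FKBP5 are genes the study itself picked on these samples, and a direction found for them here is no independent evidence. AOAH, which inactivates lipopolysaccharide, had 2.40, 2.38, 2.83 and 1.37 CPM in mild against 0.693, 1.59 and 2.24 CPM in CON. Of the mild libraries, mild 4 alone lay within the CON range, and the log2 fold change was 0.58 ± 0.28 (edgeR adjusted p = 0.465). ARG2, the mitochondrial arginase, stood at -0.45 ± 0.32, PAK2, a kinase of the cytoskeleton, at 0.29 ± 0.22, and FKBP5, a co-chaperone of the glucocorticoid receptor, at -0.33 ± 0.26.

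Markers of cells foreign to blood had few counts. Of 16 epithelial and liver genes in the files, 1 passed the filter on low counts. KRT18, APOB, TTR and SERPINA1 had 0 counts in all 11 libraries, and no other untested gene of this list had more than 11 counts in a library. RPS21 and RPL29, genes of ribosomal proteins, also had 0 counts in all 11 libraries, so 0 counts alone do not show that a transcript was absent. Endothelial and stromal genes were lower in 5 of 5 tested members (median -0.41, or -0.19 without mild 1), with 0 at an unadjusted p under 0.05. CDH1, the epithelial cadherin, was the epithelial gene that passed, with 0.800, 1.25, 0.962 and 0.951 CPM in mild against 0.380, 0.638 and 0.918 CPM in CON (0.56 ± 0.28, edgeR adjusted p = 0.465).

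The same comparison could be made in batch 3, where 7 mild piglets were set against 7 CON piglets, in 1 fit of all 39 libraries. All mild libraries there and 3 of the CON libraries carry the run label FKDL, and the other 4 CON libraries the label BKDL. All 3 FKDL controls are labelled male, while the mild group and the BKDL controls hold both sexes. Values with the FKDL controls alone thus also change the balance of sexes, with sex as a term. A BKDL control, CON 16, had a globin share of 35.0%, against 79.0 to 86.3% in the other CON libraries of batch 3. The difference of the 2 batches' mild-minus-CON changes was tested directly, and edgeR called 0 of 12329 genes (0%), while 734 reached an unadjusted p under 0.05 (5.95%). DESeq2 called 3 genes and limma 0.

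In this fit the B cell median was 0.52 in batch 1, with 22 of 23 members higher, against 0.13 and 17 members in batch 3, or 0.21 with its FKDL controls. The difference between the batches reached an unadjusted p under 0.05 in 2 members. PAX5 stood at 1.15 in batch 1 against 0.13 ± 0.32 in batch 3, a difference of 1.02 ± 0.50 (edgeR adjusted p = 0.809). With the FKDL controls alone, PAX5 stood at 0.58 ± 0.44 in batch 3. Neutrophil granule genes had a median of -0.78 in batch 1, against 0.41 in batch 3, or 1.34 with its 3 FKDL controls, with 0 of 11 members at an unadjusted p under 0.05 for the difference. The platelet median was -0.86 in batch 1, against -0.44 in batch 3, or -0.05 with its FKDL controls. The monocyte median was -0.55 in batch 1 and 0.03 in batch 3, or -0.05 with its FKDL controls. T cell genes were higher in 21 of 25 members in batch 1 (median 0.13), against 5 in batch 3 (median -0.30, or -0.25 with its FKDL controls).

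Interferon-stimulated genes had the opposite sign in the 2 batches: in batch 1, 6 of 42 members were higher in mild (median -0.55), against 38 of 42 in batch 3 (median 0.31). The difference reached an unadjusted p under 0.05 in 11 of the 42, among 5.95% of all genes. IRF1 stood at -1.16 ± 0.34 in batch 1 and 0.29 ± 0.28 in batch 3, a difference of -1.45 ± 0.44 (edgeR adjusted p = 0.809), or -1.36 ± 0.53 without the BKDL controls. STAT2, a transducer of type I interferon signals, differed by -1.09 ± 0.35 and IFIT1, an antiviral RNA-binding protein, by -1.48 ± 0.47. Mitochondrially encoded genes were higher in mild in 4 of 12 members in batch 1 (median -0.06), against 12 of 12 in batch 3 (median 0.86, or 0.66 with its FKDL controls). For the difference, 5 members had an unadjusted p under 0.05.

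The leading genes of the batch difference by p were taken among those with a symbol and a mean of at least 5 CPM. Beside IRF1 they were EAF1, a factor of transcription elongation (-1.81 ± 0.45), ENSA, an inhibitor of a mitotic phosphatase (-1.41 ± 0.41), and CCNI (-1.34 ± 0.39). CTR9 (-4.04 ± 1.14) and HEPACAM (-6.87 ± 1.95) were also among them, all at an edgeR adjusted p of 0.809. Without the BKDL controls these differences were -1.79, -0.86, -1.03, -3.11 and -4.62 in that order (edgeR adjusted p = 0.993). CTR9 averaged 196 ± 393 CPM in mild piglets of batch 3 (SD), a spread larger than its mean. EAF1 averaged 16.6 ± 4.71 CPM in mild and 34.4 ± 27.2 CPM in CON of batch 1, against 24.9 ± 9.51 and 14.9 ± 2.57 CPM in mild and CON of batch 3 (SD). HEPACAM was at 0.169 CPM in mild and 0.467 CPM in CON of batch 1, and at 3939 ± 4204 CPM in mild and 539 ± 656 CPM in CON of batch 3 (SD).

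**Figure D5:**
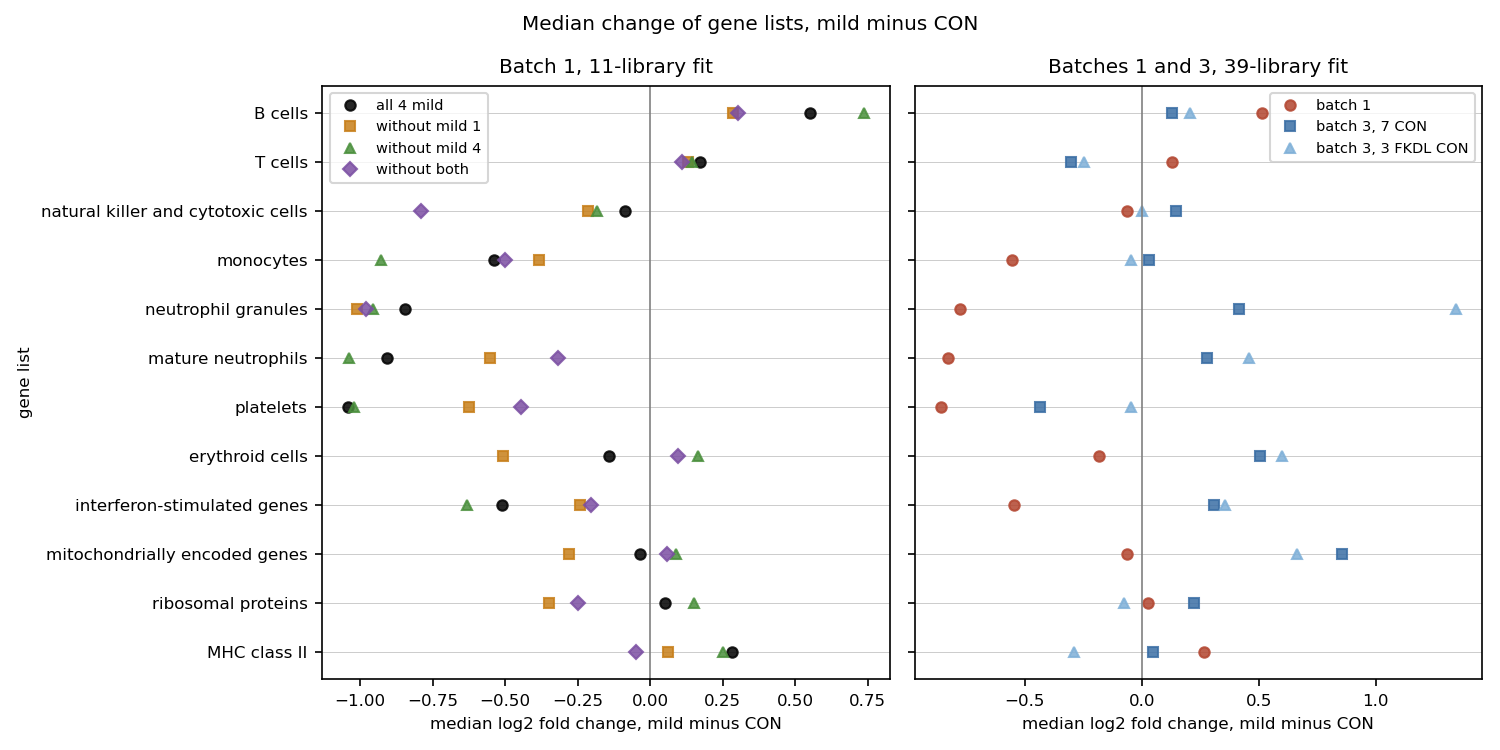
Median log2 fold change, mild minus CON, of 12 gene lists. Left, batch 1 with all 4 mild libraries and without mild 1, mild 4 or both; right, batch 1 beside batch 3 in the 39-library fit, with all 7 or the 3 FKDL controls of batch 3. B cells stay above 0 in every setting shown, interferon-stimulated genes lie at -0.55 in batch 1 and 0.31 in batch 3.

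Within batch 1, mild piglets differed from the 3 severe ones (2 labelled female, 1 male) in 259 of 10172 genes by the edgeR test (2.55%), of which 191 were higher (1.88%) and 68 lower (0.669%) in severe. This comparison used all 14 libraries of the batch, whose CPM scale differs slightly from that above. Severe 2 is labelled male but had 1 count of EIF1AY and 0 of KDM5D, so its label is in doubt. Without severe 2 the test called 5 genes, all higher in severe (0.0477%), and without severe 1 it called 20. Without mild 1 it called 57 genes, and without mild 3 it called 81. The number called thus depended on libraries of both groups. Globin shares were 70.7, 72.0 and 81.1% in severe 1 to severe 3, against the 70.7 to 90.3% given above for mild, and their part in these differences was not tested.

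B cell genes were lower in severe than in mild blood in 22 of 23 members, with a median log2 fold change of -1.67. The edgeR test called 13 of them lower, where 0.669% of all genes were called lower. Without severe 2, 0 of them passed, and without mild 1, 7 did. MS4A1 (-2.04 ± 0.34, adjusted p = 0.00958), CD72 (-2.07 ± 0.35, adjusted p = 0.00958) and PAX5 (-1.77 ± 0.33, adjusted p = 0.012) were among them by the edgeR test. Without severe 2 their log2 fold changes were -2.03, -2.22 and -1.59 in that order, with edgeR adjusted p between 0.0608 and 0.111. SPIB, a transcription factor of B cells, had 2.67, 2.38 and 3.29 CPM in severe 1 to severe 3, against 17.4, 9.74, 9.87 and 5.86 CPM in mild 1 to mild 4. The groups did not overlap, and the log2 fold change was -1.93 ± 0.34 (edgeR adjusted p = 0.0103), or -1.81 with an adjusted p of 0.0939 without severe 2. Of 14 MHC class II genes, 11 were lower and 5 were called lower (CIITA, HLA-DRA, CD74, SLA-DOA and SLA-DQB1), while 0 passed without severe 2 and 1 without mild 1. CIITA had 2.43, 2.93 and 3.004 CPM in severe, against 10.7, 5.87, 9.50 and 7.995 CPM in mild (-1.61 ± 0.25, edgeR adjusted p = 0.00714, and 0.0608 without severe 2).

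Several genes of monocytes, neutrophils and complement rose in severe blood relative to mild blood. Over all genes with a symbol and a mean of at least 5 CPM, globins and sex-linked genes aside, KIAA0930 had the smallest p. It had 46.9, 46.3 and 38.8 CPM in severe, against 7.68, 14.3, 15.7 and 13.6 CPM in mild and 14.8 to 28.5 CPM in CON. Its log2 fold change was 1.84 ± 0.27 (edgeR adjusted p = 0.00665), and it was still called without severe 2 (adjusted p = 0.0426). GRN, the growth factor progranulin, had 15.7, 15.5 and 10.999 CPM in severe against 3.42, 6.02, 3.56 and 5.23 CPM in mild (1.64 ± 0.25, edgeR adjusted p = 0.00714, and 0.0608 without severe 2). ADAM8, a metalloprotease of leukocytes, had 37.3, 46.7 and 32.2 CPM in severe against 5.31, 14.5, 11.9 and 10.6 CPM in mild (1.97 ± 0.34, edgeR adjusted p = 0.00958, and 0.0609 without severe 2). Monocyte genes were higher in severe in 14 of 16 members, and 4 were called higher (AIF1, CD163, VSIG4 and VCAN), where 1.88% of all genes were. Granule genes were higher in 10 of 11, with 2 called (LCN2 and CEBPE), and complement genes in 10 of 11, with 4 called. Glucocorticoid-responsive genes were higher in 20 of 23, with 5 called, FKBP5 among them at 1.62 ± 0.33 (edgeR adjusted p = 0.0208, and 0.112 without severe 2). Without severe 2, LCN2 alone of these list members passed. The mild libraries stand on both sides of this and the CON comparison, so the 2 sets of changes share their samples and are given side by side only.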

How the data were processed

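The values the authors deposited are raw HTSeq counts for 25880 Ensembl genes, with 1 table for each piglet; 5 closing lines that name no gene were left out. Per the submitters' processing notes, Trim Galore, TopHat, HTSeq and DESeq2 were used on the build Sscrofa11.1; no version, annotation release or strand setting is stated there. Per the labels' protocols, RNA came from whole blood and was sequenced as mRNA libraries. Reads aligned to several places were 20.9 to 35.5% in mild and 22.9 to 34.4% in CON libraries of batch 1, and are counted for no gene.

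Symbols came from a table pairing Ensembl IDs with names (14857 of 25880 genes); positions came from RefSeq by symbol, and no sequence was used here. The deposited counts were tested with edgeR 4.0.16 in R 4.3.3 (quasi-likelihood F test, robust, TMM, filterByExpr with a minimum count of 10, sex as a term, Benjamini-Hochberg over all tested genes, threshold 0.05). The fits held the 11 libraries of mild and CON, the 14 libraries of batch 1 for severe against mild, and all 39 libraries for batch 1 minus batch 3. Each standard error was derived from the fold change and its F statistic (log2 fold change over root F). List levels used a pseudocount of 0.5. The procedure was tested on simulated data for mild against CON of batch 1. It called 33 of 93 genes (35.5%) with a true log2 change of 1 and 92 of 101 (91.1%) with a change of 2, with 6 false calls. Apart from these changes, the simulated libraries shared the same mean profile and differed in total counts only, without the real differences in globin share. Alternatives were DESeq2 1.42.0, its size factors, limma 3.58.1 voom with sample weights, other filters, no sex term, and libraries left out.

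Named genes were the 12 with the smallest p per direction at a mean of at least 5 CPM, since none passed the threshold, and up to 4 per list with the smallest p. To these were added the 6 with the smallest p in each other contrast, at the same CPM minimum, and AOAH, ARG2, FKBP5 and PAK2. The picks over all genes needed a symbol and left out globins and sex-linked genes. Some genes that this rule names are not reported here. Genes given beyond these were picked after their values were seen. The comparison, the 36 lists and the tests were chosen with earlier results of these data known. Each library is labelled as its own piglet and counted as 1 replicate; all pairs within a group differed by more than sampling noise (lowest chi-square per degree of freedom 9.28). Fragments were not counted by molecule, so precision statements cover counting and between-piglet spread only.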

Additional observations from a re-analysis of the deposited data

Results flagged for a closer look

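A library far from the rest of its group was found in 23 of 300 groups of values examined, and chance alone marks about 1 group in 20 by the criterion used. In the mild group, mild 4 stood apart in its globin share, 70.7%, and in NLRC3, a regulator of T cell activation, at 9.21 CPM. Mild 1 stood apart in the mean level of the monocyte list, 1.43, and of the adhesion and migration list, 3.61. It also did so in JUP at 9.90 CPM, TLR10 at 2.001 CPM and CISH at 2.60 CPM. Mild 3 was far from the others in NDUFS3, a subunit of respiratory complex I, at 3.67 CPM and in ASNS, asparagine synthetase, at 15.2 CPM.

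In the CON group, CON 7 was far above the others in the neutrophil genes S100A8 at 234 CPM and S100A12 at 302 CPM. It was also far above in the red cell genes CA1 at 2.53 CPM and ICAM4 at 94.4 CPM, in RPL10 at 575 CPM, in LDHA at 70.6 CPM and in ASNS at 23.3 CPM. CON 6 stood apart in PRDM1 at 2.82 CPM, BATF3 at 9.43 CPM, PTGS1 at 3.40 CPM and ATF3 at 7.78 CPM, and CON 3 in CPSF6 at 12.1 CPM, REL at 6.28 CPM and PAK2 at 14.9 CPM.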

How the results depend on the processing

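No gene passed between mild and CON in any edgeR fit with the filter on low counts, with each of the 11 libraries left out in turn (611 to 1233 genes at an unadjusted p under 0.05), without mild 1 and mild 4 (273 at that p), without flow cell H53GYCCXY or among labels ending in 16. DESeq2 called 41, limma 2 and edgeR without a low-count filter 279 (55 higher, 224 lower), of which 264 were also tested with the filter; the cause was not tested. For batch 1 minus batch 3, DESeq2 called 3 genes. Severe against mild gave 839 genes by DESeq2, 389 with its size factors in edgeR, 1168 by limma, 544 without the filter, 137 without the sex term, and 5 to 301 with 1 library left out: 5 without severe 2, 20 without severe 1, 57 without mild 1 and 81 without mild 3. The sign turned without mild 1 and mild 4 for MZB1 (-0.0358), TBX21 (-0.0778), COX2 (0.0058), RPL10 (-0.17) and ARG2 (0.20), without flow cell H53GYCCXY for ZBTB46 (-0.10) and by limma for RPL10 (-0.11). With 1 library left out, COX2 ran from -0.51 to 0.0407, COX3 from -0.49 to 0.0137 and RPL10 from -0.35 to 0.65. Among labels ending in 16 the globin share differed by 0.434 and reads aligned to several places by 2.55 percentage points, mild minus CON; with 1 library left out these ran from -5.88 to 0.678 and from -2.79 to 2.06. No paired analysis was possible because the labels give no replicate numbers that groups share. Low counts limited genes near the filter: 1 CPM was 7.90 counts in the shallowest CON library.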

Other observations

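A few genes were called by DESeq2 or limma but not by edgeR, where HMCES and PNP also had the smallest p. They were chosen after their values were seen. HMCES, which shields abasic sites in single-stranded DNA, had 2.70, 2.85, 4.03 and 2.66 CPM in mild 1 to mild 4, against 4.91, 5.93 and 7.47 CPM (lowest, median, highest) in CON. Every mild library lay below every CON library, with a log2 fold change of -1.002 ± 0.17 by edgeR (adjusted p = 0.243). Its adjusted p was 9.17e-06 by DESeq2 and 0.0433 by limma. PNP, a purine salvage enzyme whose loss depletes T cells in humans, had 0.5002, 1.72, 1.44 and 0.819 CPM in mild, against 1.88, 2.41 and 4.75 CPM in CON. Its groups did not overlap (-1.38 ± 0.25), and its adjusted p was 0.247 by edgeR, 0.000613 by DESeq2 and 0.0485 by limma.

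Among the 5 genes that DESeq2 called higher, HVCN1, a proton channel abundant in B cells, had 7.30, 4.16, 5.11 and 4.96 CPM in mild, against 2.54, 2.92 and 3.68 CPM in CON. It lay apart between the groups at 0.81 ± 0.18 by edgeR (adjusted p = 0.305), with a DESeq2 adjusted p of 0.0472. MTR, methionine synthase, had 1.80, 0.891, 1.26 and 1.73 CPM in mild, against 0.201, 0.506 and 0.883 CPM in CON (1.56 ± 0.31 and adjusted p = 0.247 by edgeR, adjusted p = 0.0122 by DESeq2). SCN4A, a sodium channel of skeletal muscle, had 2.60, 1.78, 2.46 and 1.60 CPM in mild, against 0.253, 0.486 and 1.04 CPM in CON (1.68 ± 0.34 and adjusted p = 0.247 by edgeR, adjusted p = 0.0106 by DESeq2).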
